A study of Mus musculus with 48 samples.

Results

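The genes examined here are 10 mouse genes that mark neutrophils, chosen by name from a list: S100a8, S100a9, Retnlg, Csf3r, Cxcr2, Il1r2, Il1b, Clec4d, Mmp8 and Mmp9. They were picked out of 15541 genes listed in the tables of 6 tissues, and 9 of the 10 matched a row in at least 1 table. The liver table held 8 of them, the table of white adipose tissue (WAT) held 8 and the muscle table held 2. No row of the duodenum, jejunum or ileum tables matched any of the 10, and Mmp8 matched no row in the 6 tables, so it is not analysed here. The genes were proposed with values of the RYGB against sham contrast already known. Their differences between the surgeries are therefore given as a description without a test.

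The animals were male C57Bl6 mice with diet-induced obesity, raised on a high fat diet. They had either Roux-en-Y gastric bypass (RYGB), in which the food is led from a small gastric pouch into the jejunum, or sham surgery. Both groups then received a liquid elemental diet, and the tissues were taken on day 9, in the morning after a fast. There were 4 RYGB and 4 sham libraries for the liver, for subcutaneous WAT and for skeletal muscle. Scraped villi gave 3 RYGB and 4 sham libraries from the duodenum, as many from the jejunum, and 5 of each from the ileum. The labels do not give the age of the mice, and they do not say whether sham mice were matched for weight or whether the tissues came from the same animals. The p-values below therefore measure the spread between these libraries.

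The values are CPM, the reads of a gene relative to all counted reads of its library, rounded to 0.1 and listed for each tissue in a table of its own. The depth of the libraries is unknown. A gene was listed where the number of libraries at 1 CPM or more was no lower than the size of the smaller surgery group. In the liver, Retnlg, Cxcr2 and Clec4d met this requirement through the 4 RYGB libraries alone, since none of their sham values reached 1 CPM. In WAT, Cxcr2 reached 1 CPM in 4 RYGB libraries and 1 sham library, and in muscle, S100a9 did so in 4 and 2. These genes could be listed only because they were high in the RYGB group, so counts over the listed genes are not evidence of a direction.

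Neutrophils are short-lived white blood cells that are made in the bone marrow under the control of granulocyte colony-stimulating factor. They leave the blood toward a source of chemokines and carry granules with proteases, antimicrobial proteins and an oxidase that makes reactive oxygen. In the liver they pass through the sinusoids next to resident macrophages, and in obese adipose tissue they are usually a minor population. In a bulk sample, fewer cells of a type and less RNA per cell cannot be told apart. Several of the 10 genes are also used by monocytes and macrophages, in particular Il1b, Clec4d and Mmp9.

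The label was checked against a list of 10 neutrophil markers, of which 6 are themselves among the genes described. In the liver, 6 of the 10 markers were listed, the others being Ly6g, Mmp8, Cxcr1 and Cd177. In WAT, 4 were listed (Cxcr2, Csf3r, S100a8 and S100a9), and in muscle 1. Ly6g, which encodes the surface antigen used to stain mouse neutrophils, matched no row of any table. Outside the genes described, Fpr1, a receptor for formylated bacterial peptides, was listed in the liver alone. It was at 6.1, 34.1, 8.3 and 10.6 CPM after RYGB and at 5.3, 6.4, 5.8 and 5.3 CPM after sham surgery. The groups of Fpr1 thus overlapped, and its log2 fold change was 0.94 (SE 0.39, adjusted p = 0.153 by limma). Cd177 was listed in the jejunum alone. The label could thus be checked mainly with the genes described themselves.

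In all, 2 libraries stood apart, and differences that rest on them are also given without them. In the liver, RYGB replicate 2 held the highest value of all 8 listed genes. In WAT, RYGB replicate 4 held the highest value of S100a8, S100a9, Csf3r, Cxcr2 and Il1b and the lowest of Clec4d. These are libraries of different tissues, and nothing in the labels sets them apart.

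The stretches before the transcription start are shown for the genes with the 3 largest differences in the liver, S100a9, S100a8 and Retnlg. They are the 250 bases upstream of the RefSeq start on the strand of the gene, in the build GRCm38.p6. S100a8 lies on the plus strand (chr3:90668821-90669070) and S100a9 on the minus strand of the same chromosome (chr3:90695722-90695971). Retnlg lies on the plus strand of another (chr16:48872358-48872607). For S100a8, the GENCODE M21 gene begins 93 bases before the RefSeq start. Capitals mark letters that match a TATA box (TATAAA), the binding motif of C/EBP factors (TTNNGCAA), which drive genes of the granulocyte lineage, or the core of the motif of PU.1 (GAGGAAG), a factor of myeloid cells. Both strands were searched.
S100a8: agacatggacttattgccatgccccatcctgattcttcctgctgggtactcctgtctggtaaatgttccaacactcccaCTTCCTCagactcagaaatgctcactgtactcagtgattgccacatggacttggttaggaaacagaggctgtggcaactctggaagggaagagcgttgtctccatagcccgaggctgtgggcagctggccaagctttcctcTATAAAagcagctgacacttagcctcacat
S100a9: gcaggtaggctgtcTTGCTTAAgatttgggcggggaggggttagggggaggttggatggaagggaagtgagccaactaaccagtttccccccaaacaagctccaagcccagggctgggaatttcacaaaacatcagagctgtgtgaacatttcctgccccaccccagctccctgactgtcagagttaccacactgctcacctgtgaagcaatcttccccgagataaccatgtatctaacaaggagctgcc
Retnlg: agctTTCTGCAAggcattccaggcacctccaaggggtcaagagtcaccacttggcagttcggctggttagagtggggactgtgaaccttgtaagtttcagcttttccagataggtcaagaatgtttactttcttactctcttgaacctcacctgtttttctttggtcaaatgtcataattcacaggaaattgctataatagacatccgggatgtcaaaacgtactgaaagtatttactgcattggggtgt
The stretch of S100a8 held the TATA box 30 to 25 bases before the start and a PU.1 motif 171 to 165 bases before it. That of S100a9 held a C/EBP motif 236 to 229 bases before the start and no TATAAA. That of Retnlg held a C/EBP motif 246 to 239 bases before the start. Promoter sequences were matched for 9 of the 10 genes, all but Mmp9. Of these 9, 3 held the C/EBP motif (S100a9, Mmp8 and Retnlg), 4 the PU.1 motif (S100a8, Csf3r, Clec4d and Mmp8) and 2 the TATA box (S100a8 and Il1b). Over all 32851 mouse promoters of the table, 9.56% held the C/EBP motif, 10.6% the PU.1 motif and 12.4% the TATA box within the same distance. A match describes letters and is not a site of binding, and the RefSeq start of Il1r2 lies 12014 bases inside its GENCODE gene.

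In the liver, all 8 listed genes had higher values in each of the 4 RYGB libraries than in any of the 4 sham libraries. Such separation in this direction was found for 13.4% of the 11807 genes tested. The 8 differences ranged from 1.21 to 2.59 on the log2(CPM + 1) scale with a median of 1.54, against a median of 0.13 over all genes tested. At an adjusted p-value under 0.05 and a fold change of at least 1.5, the call used throughout, 6 of the 8 genes were called, beside 7.08% of all genes tested. Nothing is read from this count, because the contrast was used in choosing the genes.

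S100a8 and S100a9 encode the subunits of calprotectin, the most abundant protein of the neutrophil cytosol. Their genes lie near each other on chromosome 3, S100a8 at 90668978 to 90670035 and S100a9 at 90692632 to 90695721 (GRCm38). S100a8 was at 9.0, 175.9, 22.7 and 9.4 CPM in RYGB replicates 1 to 4 and at 5.3, 4.7, 3.4 and 2.5 CPM in sham replicates 1 to 4. The lowest RYGB liver lay above the highest sham liver, but most of the group mean came from RYGB replicate 2. The mean was 54.2 ± 81.3 CPM (SD, n = 4) after RYGB and 3.98 ± 1.26 CPM (SD, n = 4) after sham surgery, a log2 difference of 2.41 with a standard error (SE) of 0.74. Without RYGB replicate 2 the difference was 1.48.

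S100a9 was also highest in RYGB replicate 2 and next highest in RYGB replicate 3. It was at 16.2, 243.5, 34.1 and 15.7 CPM after RYGB and at 7.7, 6.5, 4.7 and 4.0 CPM after sham surgery. RYGB replicate 2 was 7.14 times the next library, and the other 3 RYGB livers were at least 15.7 CPM against at most 7.7 CPM in the sham livers. The log2 difference was 2.59 (SE 0.70), and 1.72 without RYGB replicate 2.

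Retnlg encodes resistin-like gamma, a secreted protein of bone marrow and blood granulocytes. The gene was at 2.4, 22.0, 4.0 and 2.4 CPM after RYGB and at 0.8, 0.5, 0.6 and 0.5 CPM after sham surgery. The sham values were within a few steps of the rounding, while every RYGB liver reached at least 2.4 CPM. The log2 difference was 1.92 (SE 0.51), and 1.28 without RYGB replicate 2.

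Csf3r encodes the receptor for granulocyte colony-stimulating factor. It was at 7.3, 21, 10.1 and 7.5 CPM after RYGB and at 3.6, 4.5, 3.8 and 4.0 CPM after sham surgery. The 4 sham livers were close together, with a mean of 3.97 ± 0.386 CPM (SD, n = 4), and the gap to the lowest RYGB liver was wider than their range. The log2 difference was 1.21 (SE 0.27), and 0.89 without RYGB replicate 2.

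Cxcr2 encodes the receptor through which neutrophils sense CXCL1 and CXCL2. It was at 1.2, 5.8, 1.7 and 1.3 CPM after RYGB and at 0.4, 0.5, 0.3 and 0.2 CPM after sham surgery, which is a log2 difference of 1.21 (SE 0.32). Per exon length its level was the lowest of the 8 genes in both groups. Without RYGB replicate 2 its mean over the libraries fell below the 1 CPM required for the fit, so no difference is given.

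Il1b encodes interleukin-1 beta, a cytokine made by neutrophils, monocytes and macrophages on activation. Its values were 7.1, 21.3, 7.6 and 7.6 CPM after RYGB and 3.2, 2.6, 2.8 and 2.3 CPM after sham surgery. The 3 other RYGB livers were nearly equal, and all were above 2 times the highest sham liver. The log2 difference was 1.53 (SE 0.29), and 1.18 without RYGB replicate 2.

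Clec4d encodes a C-type lectin of myeloid cells that binds a mycobacterial glycolipid. It departed from the other genes, since RYGB replicate 2 was not far above the rest. It was at 3.5, 4.0, 2.5 and 1.9 CPM after RYGB and at 0.3, 0.3, 0.3 and 0.4 CPM after sham surgery, with a log2 difference of 1.55 (SE 0.19) that was 1.43 without RYGB replicate 2.

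Mmp9 encodes gelatinase B, a matrix protease stored in neutrophil granules and also made by other cells. It was at 1.6, 16.1, 3.5 and 2.6 CPM after RYGB and at 1.2, 1.2, 1.2 and 1.1 CPM after sham surgery. The sham livers were almost equal, and the lowest RYGB liver was only 0.4 CPM above them. The log2 difference was 1.25 (SE 0.46), and 0.68 without RYGB replicate 2. Mmp9 and S100a8 were the 2 genes not called.

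**Figure D1:**
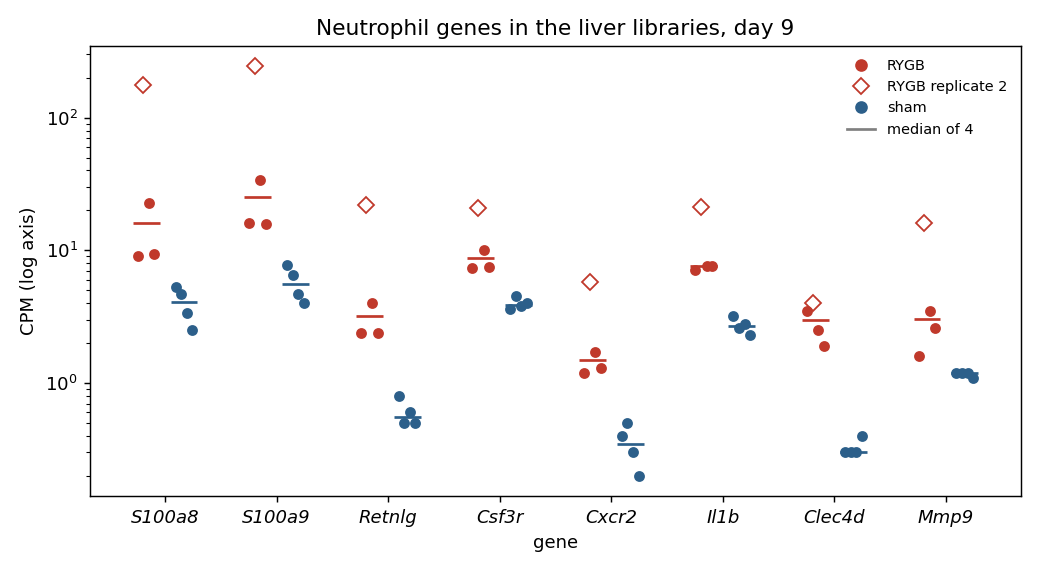
CPM (log axis) of the 8 listed neutrophil genes in the 4 RYGB (red) and 4 sham (blue) livers; the open diamond is RYGB replicate 2 and bars are medians of 4. All red points lie above all blue points of the same gene, and the diamond is highest for each gene, at 175.9 CPM for S100a8 and 243.5 CPM for S100a9.

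The livers were sequenced on 3 lanes, each of which held both groups. Within lane 2 the differences of the 8 genes ranged from 0.24 to 1.79, within lane 3, which held RYGB replicate 2, from 1.89 to 5.52, and within lane 4 from 0.83 to 1.48. As the groups do not overlap, all of these had to be above 0. Without RYGB replicate 2, 6 of the 7 genes still tested were called, with S100a8 among them and Cxcr2 no longer tested. The count of 6 called genes was 2 without RYGB replicate 3, sham replicate 1 or sham replicate 4, 3 without sham replicate 2 or sham replicate 3, and 3 when the libraries were rescaled by their median ratio. With this rescaling the differences ranged from 1.08 for Csf3r to 2.45 for S100a9, and the share of all called genes that were higher after RYGB moved from 81.8% to 65.0%.

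Markers of other cells moved with these values in part. The summed CPM of 10 macrophage and monocyte markers, all of them listed, was 846 to 2517 in the RYGB livers and 351 to 652 in the sham livers, with the highest sum in RYGB replicate 2, and 4 of the 10 were called higher. In that library Marco, a scavenger receptor of macrophages, was at 854.3 CPM, against 14.3 to 178.2 CPM in the other RYGB livers and 22.9 to 65.4 CPM in the sham livers. The sum of 5 red cell markers was 136 to 468 CPM after RYGB and 247 to 918 CPM after sham surgery, and it was 468 CPM in RYGB replicate 2. Of the 5 B cell markers 1 was listed, at no more than 3.7 CPM, and none of the 5 T cell markers was. The part of macrophages and monocytes in the values of the neutrophil genes was not tested.

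In WAT, the 8 listed genes did not move together. Cxcr2 was higher in all 4 RYGB libraries than in any sham library, whereas the groups of the other 7 overlapped. Such separation toward RYGB was found for 26.1% of the 13379 genes tested. Of the 8 genes, 1 was called (Cxcr2), beside 24.1% of all genes. The median log2 difference was 0.63, with 5 differences above 0 and 3 below, and over all genes it was 0.11.

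Cxcr2 was at 7.7, 6.9, 13.7 and 20.1 CPM after RYGB and at 0.7, 0.2, 1.3 and 0.7 CPM after sham surgery. The mean was 12.1 ± 6.14 CPM (SD, n = 4) against 0.725 ± 0.45 CPM (SD, n = 4). The lowest RYGB library was thus well above the highest sham library, and the log2 difference of 2.85 (SE 0.33) was 2.58 without RYGB replicate 4. Within lane 5 it was 2.92 and within lane 6 it was 3.63.

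Csf3r, the receptor for granulocyte colony-stimulating factor, was at 13.9, 16.1, 14.0 and 33.1 CPM after RYGB. It was at 14.2, 9.8, 13.7 and 18.1 CPM after sham surgery. The first 3 RYGB libraries lay within the sham range. The log2 difference was 0.37 (SE 0.28), and 0.09 without RYGB replicate 4. The CPM of Cxcr2 divided by that of Csf3r was 0.429 to 0.979 in the RYGB and 0.0204 to 0.0949 in the sham libraries of WAT, and it was 0.164 to 0.276 and 0.05 to 0.111 in those of the liver. The sham values of Cxcr2 are limited by rounding, and the listing of this gene through the RYGB libraries bears on both ratios.

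S100a8 and S100a9 were high in 1 library. S100a8 was at 4.4, 4.7, 5.9 and 77.8 CPM after RYGB and at 3.5, 2.0, 6.2 and 4.2 CPM after sham surgery. S100a9 was at 4.9, 8.1, 10.2 and 117.8 CPM and at 3.3, 2.3, 9.5 and 6.5 CPM. RYGB replicate 4 was 13.2 times the next RYGB library for S100a8 and 11.5 times for S100a9, and the other libraries overlapped. The log2 differences of 1.26 (SE 0.80) and 1.5 (SE 0.86) were 0.33 and 0.55 without that library.

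Il1b was at 2.7, 3.9, 4.2 and 10.8 CPM after RYGB and at 2.3, 1.2, 2.8 and 2.5 CPM after sham surgery, a log2 difference of 0.88 (SE 0.35) that was 0.54 without RYGB replicate 4. Only RYGB replicate 1 lay within the sham range. Il1r2 encodes the decoy receptor that binds interleukin-1 without signalling. It was at 11.7, 9.4, 17.7 and 6.2 CPM after RYGB and at 43.0, 11.4, 8.0 and 5.1 CPM after sham surgery. Its difference of -0.19 (SE 0.56) turned to 0.39 without sham replicate 1, which held the highest value, and to 0.04 without RYGB replicate 4.

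Clec4d and Mmp9 were lower on average after RYGB, and neither was called. Clec4d was at 6.5, 6.0, 4.8 and 2.1 CPM after RYGB and at 7.3, 5.1, 9.4 and 8.8 CPM after sham surgery, a log2 difference of -0.61 (SE 0.29) that was -0.33 without RYGB replicate 4. Mmp9 was at 19.0, 21.9, 23.1 and 22.1 CPM and at 29.4, 21.7, 34.1 and 28.0 CPM, a difference of -0.37 (SE 0.14), and of -0.38 without RYGB replicate 4. RYGB replicate 4 was the lowest library for Clec4d and near the middle of its group for Mmp9.

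**Figure D2:**
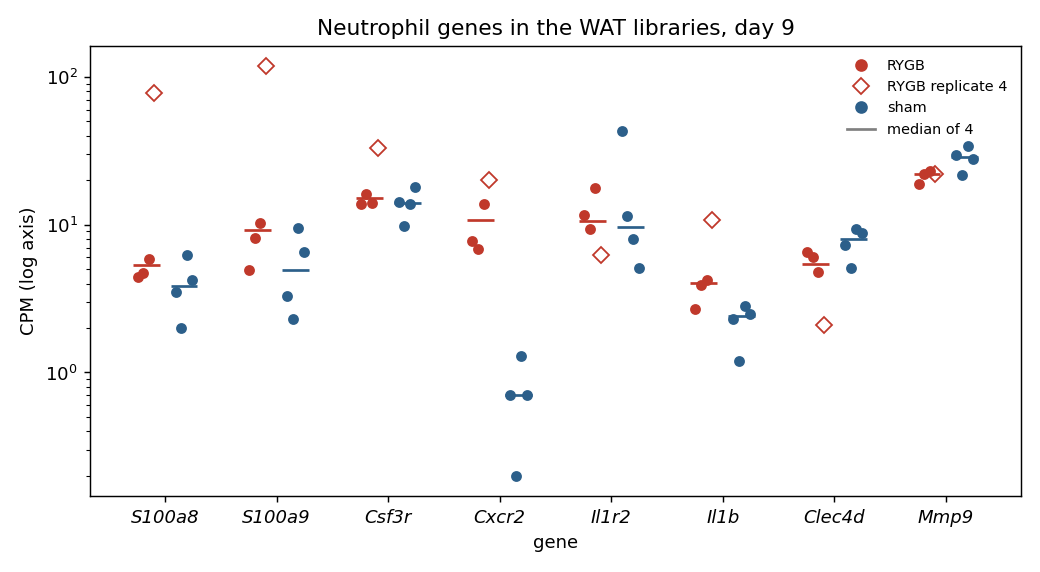
CPM (log axis) of the 8 listed neutrophil genes in the 4 RYGB (red) and 4 sham (blue) WAT libraries; the open diamond is RYGB replicate 4 and bars are medians of 4. The groups are apart for Cxcr2 alone (6.9 to 20.1 against 0.2 to 1.3 CPM), and for S100a8 and S100a9 the diamond lies far above all other points.

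Markers of several other cells also separated the groups of WAT. The sum of 5 B cell markers was 673 to 1687 CPM after RYGB and 5.1 to 11.6 CPM after sham surgery, and that of 5 T cell markers was 193 to 739 and 5.3 to 10.7 CPM. All 10 of these markers were called higher, and both sums were highest in RYGB replicate 4. Marco was at 393.4 CPM in that library and at 88.5 to 108.5 CPM in the other RYGB libraries, against 1.1 to 2.6 CPM in the sham libraries, while the summed macrophage and monocyte markers overlapped (2089 to 2236 against 1656 to 2983 CPM), with 3 of the 9 listed called higher and 3 lower. The 4 adipocyte markers summed to 2295 to 4354 CPM after RYGB, lowest in RYGB replicate 4, and to 5438 to 6601 CPM after sham surgery. The 2 listed platelet markers of 5 summed to 34.8 to 48.1 and 49.5 to 68.5 CPM, although 1 of them was called higher and 0 lower. The keratinocyte markers summed to 54.0 to 144 CPM in sham replicates 1 to 3 and to 3.6 CPM in sham replicate 4, and to 2.2 to 2.6 CPM after RYGB. What these cells in the samples contributed to the values of the neutrophil genes was not tested.

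In muscle, S100a9 and Mmp9 were listed at levels near the threshold of the table. S100a9 was at 1.6, 1.2, 2.0 and 1.9 CPM after RYGB and at 1.2, 0.3, 0.8 and 1.2 CPM after sham surgery, a log2 difference of 0.53 (SE 0.19). Mmp9 was at 2.2, 2.4, 1.9 and 2.1 CPM and at 1.2, 2.3, 2.6 and 2.5 CPM, a difference of 0.02 (SE 0.17). The groups overlapped for both genes, and limma called neither, beside 0.0% of the 11966 genes tested, of which 1746 had an unadjusted p under 0.05.

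**Figure D3:**
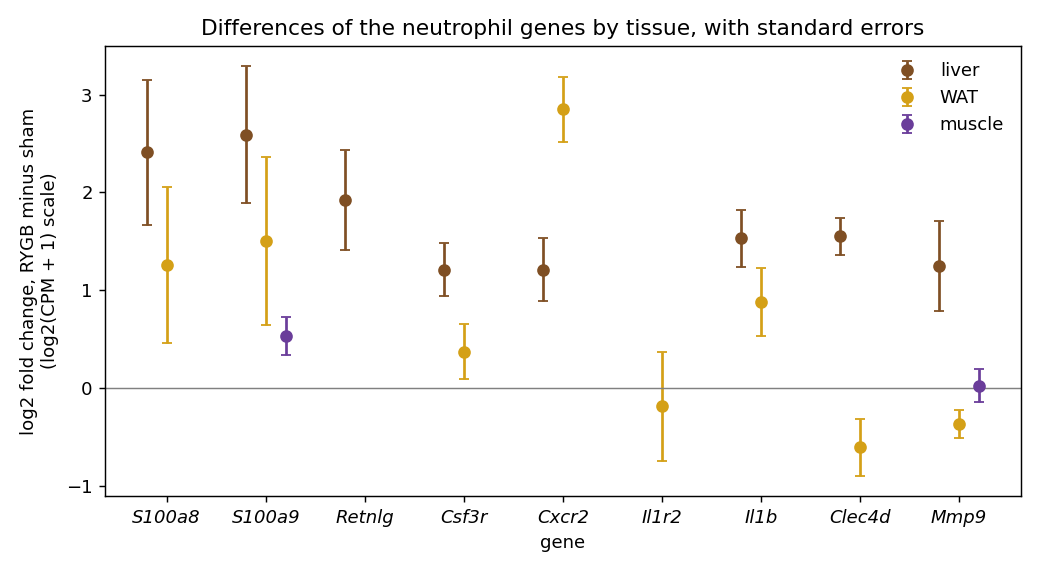
Log2 fold change of RYGB minus sham on the log2(CPM + 1) scale (points) with the standard error of the fit (bars) for each listed gene in the liver, WAT and muscle. The liver values lie between 1.21 and 2.59, whereas those of WAT spread from -0.61 to 2.85.

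Levels were compared between genes per length, as the mean CPM divided by the summed exon length in kilobases. In the sham livers S100a9 was highest at 11.0 CPM per kb, followed by S100a8 at 5.73, Il1b at 1.43, Csf3r at 1.10 and Retnlg at 1.01. Mmp9 (0.332), Clec4d (0.203) and Cxcr2 (0.115) came last. In the RYGB livers S100a9 was at 148 CPM per kb, S100a8 at 78.2 and Retnlg at 13.0, above Il1b (5.72) and Csf3r (3.18). Without RYGB replicate 2 these levels were 42.1 for S100a9, 19.7 for S100a8, 4.95 for Retnlg, 3.90 for Il1b and 2.30 for Csf3r, so the order was the same. In the sham WAT libraries S100a9 (10.3 CPM per kb), Il1r2 (8.84), Mmp9 (8.0) and S100a8 (5.73) were highest and Cxcr2 (0.238) was lowest. In sham tissue the level of S100a8 per length was the same in the liver and WAT, but the tables were normalized separately and no test was made between tissues.

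S100a8 and S100a9 kept close proportions wherever both were listed. S100a8 spanned from 2.0 to 175.9 CPM over the 16 libraries of liver and WAT, a range of 88-fold, while the CPM of S100a9 divided by that of S100a8 stayed between 0.943 and 1.80. In the liver alone the ratio was 1.38 to 1.80 after RYGB and 1.38 to 1.60 after sham surgery. Other pairs were less fixed. The CPM of Mmp9 divided by that of S100a8 was 0.0915 to 0.277 in the RYGB livers and 5.50 to 10.8 in the sham WAT libraries.

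**Figure D4:**
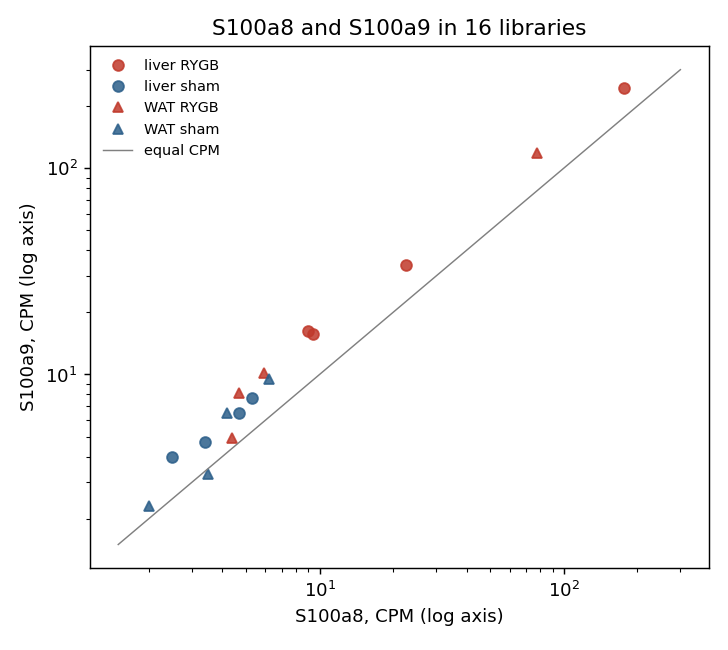
CPM of S100a9 against S100a8 (log axes) in the 8 liver libraries (circles) and 8 WAT libraries (triangles), RYGB in red and sham in blue; the line marks equal CPM. The points run along the line over the whole range, with ratios of S100a9 to S100a8 from 0.943 to 1.80, and the liver RYGB replicate 2 and WAT RYGB replicate 4 form the upper end.

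The covariation of the genes was then described inside the groups, after subtracting the mean of each tissue and surgery group, so that the difference between the surgeries played no part. Over 16 libraries of liver and WAT, the 21 pairs of the 7 genes listed in both tissues had a median Pearson r of 0.78. It was 0.68 over 14 libraries without the 2 that stood apart. For all correlations without a library, the group means were still those computed with it. The other libraries of its group thus stayed offset from their own mean, and such values still carry the library left out. The libraries share their tables and any difference in composition, so these values are a description. S100a8 and S100a9 had r = 0.99 and rho = 0.96, and r = 0.96 without the 2 libraries. S100a8 also varied with Il1b (r = 0.95, rho = 0.88), Csf3r (r = 0.93, rho = 0.84) and Cxcr2 (r = 0.92, rho = 0.84), which without the 2 libraries had r = 0.82, 0.77 and 0.79. Over both tissues Clec4d had r from -0.22 to 0.29 with the other 6 genes. Within the liver alone its r with the other 7 listed genes was 0.52 to 0.64. The median r over all 28 pairs was 0.97 in the liver and 0.86 without RYGB replicate 2, and in WAT it was 0.36 and 0.51 without RYGB replicate 4.

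Among the 8724 other genes that were tested in all 6 tissues, the 5 whose deviations were most like the mean deviation of the neutrophil genes were Adpgk, Mta1, Ptpn1, Grk2 and Pik3cd. The likeness was computed over the 24 libraries of liver, WAT and muscle, since the gut tables held no row of the 10 genes. Its values without the 2 libraries that stood apart also kept the group means computed with them. Adpgk, an ADP-dependent glucokinase, had r = 0.90 and rho = 0.81, and r = 0.79 without the 2 libraries. Mta1 and Ptpn1 each had r = 0.87 and rho = 0.64, and r = 0.68 and 0.71 without the 2 libraries. Grk2, a kinase that desensitizes G protein-coupled receptors, and Pik3cd, a catalytic subunit of phosphoinositide 3-kinase in leukocytes, each had r = 0.84 and rho = 0.57, and r = 0.65 and 0.61 without them.

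A list of 71 related genes was then examined, in 6 groups: granule and maturation genes, subunits of the oxidase, surface receptors, ligands that recruit neutrophils, the interleukin-1 system, and matrix proteases with their inhibitors. They were tested with limma, with adjustment over all genes of a tissue. In the liver 40 were tested and 16 were called, all of them higher after RYGB, beside 5.79% of all genes called higher. The median log2 fold change was 1.00 over the 40, against 0.13 over all genes. Of the 16, Clec4e and Timp1 reached 1 CPM in RYGB livers only, so their direction was fixed by the listing. Chil3, which was called, and Ltf, which was not, reached 1 CPM in 4 RYGB livers and 2 sham livers. Ngp and Prtn3, which were also not called, did so in 4 and 3. The listing of these genes thus also depended on the RYGB group, and the median over the 40 shares this limit. Of the groups, 2 of 6 granule and maturation genes, 3 of 6 oxidase subunits, 6 of 13 surface receptors, 0 of 2 recruiting ligands, 3 of 8 interleukin-1 genes and 2 of 5 protease genes were called. Without RYGB replicate 2 the count was 19, without RYGB replicate 1 it was 26 and without RYGB replicate 3 it was 9. Of these, 18, 25 and 9 were higher after RYGB. With median ratio scaling 13 of 14 called genes were higher, and with a pseudocount of 0.1 it was 19 of 20. In the other alternative fits of the liver all called related genes were higher.

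Among the granule genes, Chil3, a chitinase-like protein of neutrophils and macrophages, was at 8.0, 51.6, 11.5 and 6.2 CPM after RYGB and at 1.4, 1.7, 0.6 and 0.4 CPM after sham surgery (log2 fold change 2.88, SE 0.52, adjusted p = 0.0117). It has a close paralog, Chil4, and how reads of the pair were divided is not given in the sources used here. Lcn2, which encodes an iron-sequestering protein of granules that hepatocytes also secrete, was at 298.1 to 1946.3 CPM against 57.2 to 317.6 CPM, with overlap (2.28, SE 0.61, adjusted p = 0.0427). Its call was lost without RYGB replicate 2 (adjusted p = 0.061), in 5 other leave-one-out fits, with median ratio scaling (adjusted p = 0.0712) and with the lane as a covariate (adjusted p = 0.0532). Ngp and Ltf, both proteins of secondary granules, were not called. Ngp was at 3.3, 110.7, 14.5 and 2.8 CPM after RYGB and at 1.6, 2.6, 1.0 and 0.6 CPM after sham surgery (2.47, SE 0.87, adjusted p = 0.0976). Ltf was at 2.1, 79.8, 9.1 and 2.5 CPM against 0.5 to 1.4 CPM (2.33, SE 0.83, adjusted p = 0.10). Both were far higher in RYGB replicate 2 than elsewhere. Prtn3, a protease of the earliest granules, was not called (adjusted p = 0.791) and had its highest value in sham replicate 1, at 32 CPM against 17.2 CPM in RYGB replicate 2.

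Among the receptors, Itgam and Itgb2, the subunits of the integrin Mac-1, rose in the liver by 2.23 (SE 0.40, adjusted p = 0.0111) and 1.67 (SE 0.32, adjusted p = 0.0139) on the log2 scale. Itgam was at 8.6, 40.4, 12.7 and 8.0 CPM after RYGB and at 1.9, 2.7, 2.0 and 2.1 CPM after sham surgery. Clec4e, which encodes the lectin Mincle and is the partner of Clec4d, was at 0.1 to 0.3 CPM in the sham livers and at 2.7 to 4.5 CPM in the RYGB livers (1.87, SE 0.18). As for Clec4d, RYGB replicate 2 did not stand apart for Clec4e. C5ar1, the receptor of complement C5a, rose by 1.80 (SE 0.20, adjusted p = 0.00118) and Tlr2, a receptor of bacterial lipopeptides, by 1.54 (SE 0.23, adjusted p = 0.00582). Without RYGB replicate 2 the changes were 2.26 for Chil3, 1.74 for Itgam, 1.32 for Itgb2, 1.62 for C5ar1 and 1.28 for Tlr2, and all 5 were called. Il1rn, the secreted antagonist of interleukin-1, was at 17.1 to 25.1 CPM after RYGB and at 2.8 to 8.9 CPM after sham surgery (1.93, SE 0.26, adjusted p = 0.00291).

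In WAT 48 of the related genes were tested, of which 11 were called higher and 10 lower, beside 14.9% and 9.23% of all genes. With median ratio scaling the share of all calls that were higher was 49.6% instead of 61.8%. The median log2 fold change was 0.20 over the 48, against 0.11 over all genes. The granule and maturation genes (3 of 8) and oxidase subunits (3 of 6) that were called were higher, and the protease genes (3 of 8) were lower. The surface receptors had 2 higher and 5 lower of 15, the ligands 1 and 1 of 3, and the interleukin-1 genes 2 and 1 of 8. Gfi1 and Il1a reached 1 CPM in RYGB libraries only, so their direction was fixed by the listing. Mmp25 reached 1 CPM in 4 RYGB libraries and 1 sham library, and Cxcl2 did so in 1 and 4. The listing of these 2 genes thus depended on the group where they were high, which limits the calls of their direction. Without RYGB replicate 4, 21 genes were called.

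Rac2, a GTPase of the oxidase that all blood cells use, rose in WAT by 2.68 on the log2 scale (SE 0.29, adjusted p = 0.000531) and Ncf4, another subunit, by 1.74 (SE 0.27, adjusted p = 0.00306). Mmp25, a membrane-bound protease of leukocytes, rose by 2.49 (SE 0.40, adjusted p = 0.00331) and Pglyrp1, a bacterial peptidoglycan-binding granule protein, by 2.23 (SE 0.32, adjusted p = 0.0021). Il1a was at 1.5 to 9.4 CPM after RYGB and at 0.0 to 0.5 CPM after sham surgery (1.75, SE 0.42). Without RYGB replicate 4 the changes were 2.38 for Rac2, 1.53 for Ncf4, 2.08 for Mmp25 and 1.89 for Pglyrp1, and all 4 were called. For these 5 genes RYGB replicate 4 was the highest library, as it was for the B and T cell markers, and the part of lymphocytes in these values was not tested.

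Il1rn fell by 1.95 on the log2 scale in WAT (SE 0.48, adjusted p = 0.0154), from 16.4 to 98.2 CPM in the sham libraries to 10.0 to 18.3 CPM in the RYGB libraries, and with the lane as a covariate this call was lost (adjusted p = 0.0529). C5ar1 fell by 1.60 (SE 0.36, adjusted p = 0.0118), and it was at 43.3, 47.6, 28.6 and 14.3 CPM after RYGB and at 68.8, 82.3, 102.6 and 136.7 CPM after sham surgery. Il1rn overlapped between the groups and C5ar1 did not. The granule genes Ltf and Lcn2 were not called in WAT (adjusted p = 0.629 and 0.664). Ltf was at 37.2 CPM and Lcn2 at 23.7 CPM in RYGB replicate 4, and the other 7 libraries were at 0.3 to 6.3 CPM and at 1.8 to 5.1 CPM.

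**Figure D5:**
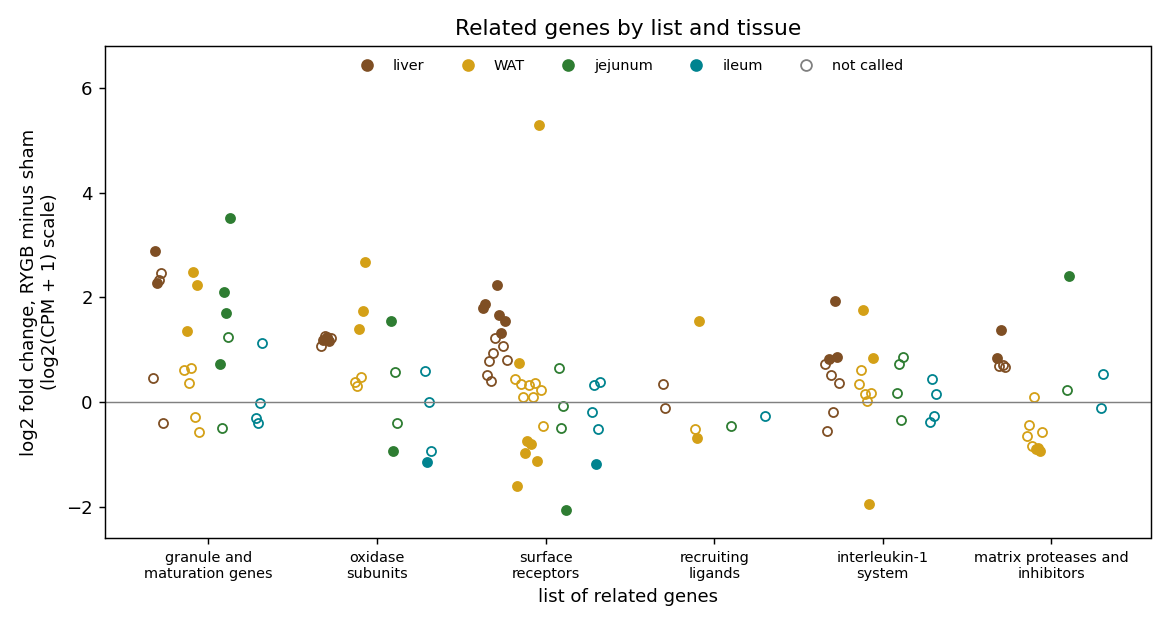
Log2 fold change of RYGB minus sham (log2(CPM + 1) scale) of each tested gene of the 6 lists of related genes, for the liver, WAT, jejunum and ileum; filled points were called and open points were not. In the liver all 16 filled points lie above 0, whereas in WAT 11 lie above and 10 below.

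In the gut, where none of the 10 neutrophil genes was listed, few genes of the related list were tested. In the jejunum 21 were tested and 8 were called (6 higher and 2 lower), beside 4.62% of all genes called higher and 5.13% called lower. The granule group had 4 of 6 called higher, but Lcn2 and Cd177 reached 1 CPM in RYGB libraries only, so their direction was fixed by the listing. Pglyrp1 was at 61.6, 94.7 and 147.6 CPM after RYGB and at 3.6, 7.5, 13.7 and 7.7 CPM after sham surgery (log2 fold change 3.52, SE 0.39, adjusted p = 0.00104). Ltf rose by 1.71 (SE 0.40, adjusted p = 0.026), a call that was lost in 3 of 7 leave-one-out fits and with the lane as a covariate. Lcn2 was at 2.1 to 5.3 CPM after RYGB and at 0.1 to 0.2 CPM after sham surgery. Cd177, a surface protein of neutrophils, was at 1.8 to 2.1 CPM against 0.6 to 0.9 CPM, and its call was lost in all 7 leave-one-out fits, with the lane and with the replicate block.

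Mmp7, the matrilysin of Paneth cells and other epithelia, rose in the jejunum by 2.41 (SE 0.39, adjusted p = 0.00555) and Cyba, a membrane subunit shared by several oxidases, by 1.54 (SE 0.34, adjusted p = 0.02). The call of Cyba was lost without RYGB replicate 3 (adjusted p = 0.0588). Ptafr, the receptor of platelet-activating factor, fell by 2.05 on the log2 scale (SE 0.36, adjusted p = 0.00727) and Ncf1, a cytosolic subunit of the oxidase, by 0.93 (SE 0.20, adjusted p = 0.0195). The call of Ncf1 was lost in 4 of 7 leave-one-out fits, with the lane and with the replicate block (adjusted p up to 0.0704). Ncf1 reached 1 CPM in 2 RYGB and 4 sham libraries of the jejunum. Its listing there thus depended on the sham group, which limits the call of its direction. Epithelial cells of the gut are also known to express several of these genes. The 5 T cell markers summed to 7.0 to 14.1 CPM after RYGB and to 34.2 to 53.4 CPM after sham surgery in the jejunum, with 4 called lower. In the ileum 4 were listed, with sums of 4.3 to 14.5 against 20.2 to 51.1 CPM and 3 called lower. The part of either cell type in the calls of the related genes was not tested. In the ileum 2 of 20 were called, both lower, beside 4.42% of all genes called lower, and the lanes of the RYGB and sham libraries did not overlap there, so that effects of lane and of surgery cannot be told apart. They were Ncf1, at 0.5 to 1.3 CPM against 2.0 to 5.4 CPM (-1.15, SE 0.22, adjusted p = 0.0137), and Itgb2, at 0.3 to 2.1 CPM against 1.7 to 5.8 CPM (-1.18, SE 0.31, adjusted p = 0.0386). The call of Itgb2 was lost in 7 of the 10 leave-one-out fits. In the ileum Ncf1 reached 1 CPM in 2 RYGB and 5 sham libraries, and Itgb2 did so in 3 and 5. The listing of both thus depended on the sham group, where they were high, which limits the calls of their direction. In the duodenum none of 19 was called by limma, beside 0.00922% of all genes, and 2040 of the 10850 genes tested there had an unadjusted p under 0.05. In muscle none of 20 was called.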

How the data were processed

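Total RNA of the tissues was made into stranded mRNA libraries (TruSeq). The submitters' processing notes name HTSeq and the build GRCm38, and the aligner and the annotation are not given in the sources used here. The authors deposited 1 table per tissue with CPM of each library. The unit was settled from the values, whose columns sum to between 925122 and 998777 with each gene counted once, and the deposited values are rounded to 0.1. No scaling beyond CPM is visible, so a change of a few abundant genes moves all others the opposite way. Repeated lines were equal and counted once (1 to 408 per table), and 12 liver lines that lacked a value were left out.

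Depth could not be recovered. Below 5 CPM, no library of the 48 left more than 2 of the 50 steps of 0.1 CPM unused, so no read count, interval or floor was computed, and values under 1 CPM are coarse.

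In each tissue, limma 3.58.1 (empirical Bayes with trend, R 4.3.3) compared RYGB with sham on log2(CPM + 1). The fit took genes whose mean reached 1 CPM, with Benjamini-Hochberg adjustment over all genes of the tissue, two-sided. A called gene had an adjusted p under 0.05 and a fold change of at least 1.5. A fold change on this scale understates the change of low genes. The method was tested on simulated data. Python 3.11.15 with numpy 2.4.6 and pandas 2.3.3 was used for summaries. Coordinates and exon lengths are those of GENCODE M21, and promoters those of RefSeq on GRCm38.p6. Tables of different tissues were normalized separately and were not tested against each other.

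The members and lists were chosen with earlier results of these data known. The related genes named are those called in a tissue, or the 8 with the largest change where more were called, and any other named gene was picked with its values in view. Of the genes this rule selects, 1 is not reported here. The alternatives were a pseudocount of 0.1, no minimum and a minimum mean of 10 CPM, median ratio scaling, the replicate number as a block, the lane as a covariate and leaving out each library. Covariation and levels per length without the 2 libraries that stood apart were added after seeing the data.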

Additional observations from a re-analysis of the deposited data

Results flagged for a closer look

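In groups of 4 or 5 libraries, the highest or lowest library was called distant when its gap to the nearest other, divided by the range of the group on the log2(CPM + 1) scale, passed the 95% value of Dixon's test. Of 80 groups examined, 8 passed, and chance flags about 1 in 20, which is 4.

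In the liver, RYGB replicate 2 was distant for Il1b (21.3 CPM, nearest 7.6 CPM, gap 0.941 of the range) and for Tlr2 (28.3 CPM, nearest 14.0 CPM, gap 0.907). Among the sham livers, replicate 1 was low for Itgb2 (7.9 CPM, nearest 12.8 CPM, gap 0.899). Replicate 4 was distant for Clec4d (0.4 CPM, the others at 0.3 CPM) and for Mmp9 (1.1 CPM, the others at 1.2 CPM), where the gap was 1 step of the rounding and the whole range (1.00). The same holds for Lcn2 in sham replicate 3 of the jejunum (0.2 CPM, the others at 0.1 CPM, gap 1.00). In WAT, RYGB replicate 4 was distant for S100a8 (77.8 CPM, nearest 5.9 CPM, gap 0.909) and for Csf3r (33.1 CPM, nearest 16.1 CPM, gap 0.834). S100a8 in the liver RYGB group did not pass although its highest library was 7.75 times the next, because the other 3 libraries were themselves spread.

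Some related genes had all RYGB libraries above all sham libraries in a tissue and all below in another. No test was made of the difference, because each tissue has a table normalized on its own. Between the liver and WAT, C5ar1 differed by 3.40 on the log2 scale (1.80 against -1.60), Itgam by 3.02 (2.23 against -0.79) and Ptafr by 2.44 (1.32 against -1.12). All 6 of these changes were called. Itgam was also opposite between the jejunum (0.66, not called) and WAT, with a difference of 1.45. Ptafr was opposite between the liver and the jejunum, with a difference of 3.37. Ncf1 was above sham in the liver (1.27, not called), WAT (1.39) and duodenum (1.32, not called) and below it in the jejunum (-0.93) and ileum (-1.15). Its differences were 2.20 and 2.42 between the liver and these 2 tissues, 2.32 and 2.54 between WAT and them, and 2.25 and 2.47 between the duodenum and them. The listing of Ncf1 in the jejunum and ileum depended on the sham group, where it was high, which limits these comparisons. None of the 7 neutrophil genes listed in the liver and WAT separated in opposite directions, although Clec4d (1.55 and -0.61) and Mmp9 (1.25 and -0.37) had differences of opposite sign, with overlapping groups in WAT.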

How the results depend on the processing

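The number of called neutrophil genes in the liver (6) was 1 with a minimum mean of 10 CPM, which leaves fewer genes to test, and 3 with median ratio scaling, and leaving out 1 library gave 2 to 8. In WAT (1) it was 0 with the minimum of 10 CPM and 3 with the lane as a covariate, and leaving out 1 library gave 1 to 2, the higher value without RYGB replicate 1. In muscle it was 0 in all alternatives. The number of called related genes in the liver (16) was 7 with the minimum of 10 CPM, and 9 to 26 without 1 library. In WAT (21) it was 12 with that minimum and 15 to 22 without 1 library. In the jejunum (8) it was 3 with that minimum and 5 with the lane, and 5 to 8 without 1 library, with 5 without RYGB replicate 2, RYGB replicate 3 or sham replicate 1. In the ileum (2) it was 0 with that minimum and 1 with scaling, and 1 to 3 without 1 library, with 1 in each fit without RYGB replicate 1, 2 or 5 or without sham replicate 1, 3, 4 or 5. In the duodenum (0) it was 3 without sham replicate 4 and otherwise 0 in these fits. Except where the minimum reduced the genes tested, the cause was not tested.

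The labels do not say whether equal replicate numbers mark the same mouse, and the reported fit did not pair the libraries. The correlation of the deviations of same-numbered libraries ranged from -0.281 to 0.389 and was not above 0.1 for every pair in any tissue. With so few pairs per tissue, these values cannot decide whether the libraries are paired. With the replicate block, 27 related genes were called in the liver, 1 in the duodenum and 3 in the ileum, and the count of neutrophil genes was 7 in the liver. Over all genes the block gave 184 called genes in muscle (0 without it) and 268 in the duodenum (1 without it).

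Over all genes, the minimum of 10 CPM gave 458 called genes in the liver (836 in the reported fit), 664 in the jejunum (1058), 333 in the ileum (650) and 3 in muscle (0). Scaling gave 2 in muscle, and the lane gave 469 in the jejunum. Leaving out 1 library gave 329 to 1204 in the liver, 0 to 210 in muscle, 0 to 757 in the duodenum, 462 to 1015 in the jejunum and 312 to 766 in the ileum. Of the differences of single neutrophil genes, 235 of 240 values under the alternatives moved by less than the spread within groups. The others were Cxcr2 (2.27) and Clec4d (2.81) in the liver, Cxcr2 in WAT (3.95) and S100a9 in muscle (0.98), all with the pseudocount of 0.1, and Mmp9 in muscle (0.29) with the lane. The spread was wide where 1 library stood apart, at 1.4 for S100a8 in the liver and 1.37 in WAT. A change of S100a8 in WAT from 1.26 to 0.33 without RYGB replicate 4 thus stayed below it. The count of 235 is therefore not evidence that the differences were stable. The sign of Mmp9 in muscle turned with scaling (-0.02), without sham replicate 1 (-0.14) and without RYGB replicate 2 (-0.01), and that of Il1r2 in WAT without sham replicate 1 (0.39) and without RYGB replicate 4 (0.04). Of 345 values for the named related genes, 308 kept the direction and the call and 37 kept the direction and lost the call. The minimum of 1 CPM left the same 21 pairs, so the median within-group correlation of 0.78 could not change with it. Without the 2 libraries that stood apart it was 0.68, with group means that still included them.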
